A study of Mus musculus with 4 samples.

Results

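Effector CD8 T cells were taken from dissociated mouse mammary tumours as cells that carried UMIs of the T cell receptor complex and of CD8 and none of the genes that mark other T cell states; they were thus selected on their own measured UMIs. A unique molecular identifier (UMI) is a short random tag that lets each captured transcript be counted once. A cell was kept when it had at least 1 UMI of Cd3d, Cd3e or Cd3g, at least 1 of Cd8a or Cd8b1, and none of Cd4, Foxp3, Top2a, Mki67, Tcf7, Lef1 and Dapl1. Its summed UMIs of the tumour genes Krt8, Krt18, Tm4sf1 and Cdkn2a, and those of the macrophage genes C1qa, C1qb and C1qc, each had to lie under 10 per 10000 UMIs, with at least 300 genes detected. Of 45220 cells in all, 665 met the rule, and they were compared with the 1245 other cells that had a Cd3 UMI and kept to both limits. The study asked how knock-down of Sema4d, the gene of semaphorin 4D, changes such tumours. Its 4 libraries came from transplanted tumours of Py8119, a mouse mammary carcinoma cell line. There were 2 libraries of genotype Sema4d-shRNA, in which a short hairpin RNA targets Sema4d, and 2 of genotype control, named NC. The sources used here state neither the age and strain of the hosts, nor the number of animals behind a library, nor the hairpin's vector, nor whether each line was 1 clone.

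CD8 T cells recognise peptides on MHC class I and, once activated, kill target cells with perforin and granzymes. They also release interferon gamma and the chemokines encoded by Ccl3, Ccl4, Ccl5 and Xcl1. T cells that stay in a tumour under lasting antigen commonly carry inhibitory receptors, among them PD-1, encoded by Pdcd1, and TIM-3, encoded by Havcr2. Semaphorin 4D is itself made by T cells.

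There were 122 and 353 effector CD8 T cells in Sema4d-shRNA replicates 1 and 2, and 114 and 76 in NC replicates 1 and 2. Within a group, values are given for replicate 1 and then replicate 2. The median cell held 2422 and 2155 UMIs in the Sema4d-shRNA libraries and 2616 and 2390 UMIs in the NC libraries. Levels are given in CPM, the usual depth-scaled count, computed from the UMIs of each gene summed over the cells of 1 library. The sums held 387701 and 1012911 UMIs in the Sema4d-shRNA libraries and 371546 and 227940 in the NC libraries. Mitochondrially encoded genes took 0.281% and 0.458% of these UMIs in the Sema4d-shRNA libraries and 1.19% and 1.30% in the NC libraries, and a gap in the same direction was present in cells over the tumour limit with no Cd3 UMI (called tumour cells below), at 0.301% and 0.404% against 0.711% and 0.671%. Sema4d itself was at 4.32 and 6.07 CPM in those tumour cells of the Sema4d-shRNA libraries and at 7.03 and 8.10 CPM in the NC libraries, a log2 difference of -0.49 (SE 0.18, adjusted p = 0.34). Any pair of libraries shared 756 to 3782 cell names, and no shared name had the same counts in both.

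Of the markers named for the cells, Cd8a and Cd8b1 were required by the rule, which also set Cd4 at 0 and capped the tumour and C1q genes, so the marker levels that follow are a description and no check of the label on those genes. The summed level of Cd8a, Cd8b1, Ccl3, Ccl4 and Havcr2 was 5616 to 8708 CPM in the effector CD8 T cells of the 4 libraries, 607 to 1566 CPM in other Cd3 cells and 16.9 to 19.6 CPM in tumour cells. Among markers of other cells, the 2 CD4 T cell markers summed to 0 to 10.8 CPM, and the 4 B cell markers to 0 to 5.38 CPM. NK cell markers summed to 511 and 376 CPM in the Sema4d-shRNA libraries and 328 and 338 CPM in the NC libraries, and an NK or NKT marker UMI was found in 6 and 12 effector CD8 T cells against 0 and 1. The 11 macrophage and monocyte markers, all of them detected, summed to 428 and 333 CPM in the Sema4d-shRNA libraries and 657 and 719 CPM in the NC libraries. Tumour markers summed to 4454 and 5695 CPM against 5391 and 4830 CPM, below the 18546 to 22551 CPM of tumour cells, and fibroblast markers to 18.1 and 177 CPM against 26.9 and 21.9 CPM. The 8 tumour markers were the capped Krt8, Krt18, Tm4sf1 and Cdkn2a, with S100a6, Krt7, Cav1 and Sparc. Each capped gene was at no more than 67.3 CPM in effector CD8 T cells of any library, so the sum lay mostly in the uncapped genes. At the tumour limit the highest cell inside had 9.85 and the lowest outside 10.0 UMIs per 10000, and at the C1q limit these were 9.57 and 10.3. At least 2 Cd3 and 2 Cd8 UMIs were carried by 92 and 297 of the cells in the Sema4d-shRNA libraries and by 93 and 59 in the NC libraries. Among all cells with Cd3 and Cd8 UMIs, 14.9% to 20.3% per library failed the rule through Top2a or Mki67 alone and 7.27% to 9.95% through Tcf7, Lef1 or Dapl1 alone.

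The promoters of Ccl3, Havcr2 and Xcl1 are shown because the first pair are markers of the cells and the third differed between the tumours. Each sequence is the 250 bases before the RefSeq transcription start (GRCm38.p6), read 5′ to 3′ on the gene's strand. Capitals mark matches, on either strand, to the letters of an NFAT core (GGAAA), an AP-1 site (TGANTCA) and a RUNX core (TGTGGT).
Ccl3: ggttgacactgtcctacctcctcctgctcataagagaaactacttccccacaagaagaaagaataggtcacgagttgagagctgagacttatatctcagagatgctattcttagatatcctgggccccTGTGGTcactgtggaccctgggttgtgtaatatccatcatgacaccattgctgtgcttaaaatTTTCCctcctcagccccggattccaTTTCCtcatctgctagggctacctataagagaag
Havcr2: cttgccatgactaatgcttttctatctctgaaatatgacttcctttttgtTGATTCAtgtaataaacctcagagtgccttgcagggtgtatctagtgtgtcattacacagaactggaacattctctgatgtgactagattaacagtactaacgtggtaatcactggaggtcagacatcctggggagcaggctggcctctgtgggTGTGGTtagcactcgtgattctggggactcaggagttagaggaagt
Xcl1: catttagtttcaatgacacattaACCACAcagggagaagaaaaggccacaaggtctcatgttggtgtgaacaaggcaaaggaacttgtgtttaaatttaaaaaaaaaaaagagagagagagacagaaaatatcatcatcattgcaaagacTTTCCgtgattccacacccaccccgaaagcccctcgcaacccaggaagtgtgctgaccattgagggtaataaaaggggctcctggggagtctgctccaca
The Ccl3 window lies at chr11:83649379-83649628 on the minus strand, the Havcr2 window at chr11:46454681-46454930 on the plus strand and the Xcl1 window at chr1:164935523-164935772 on the minus strand. RUNX letters were found 122 to 117 bases before the Ccl3 start, 46 to 41 bases before the Havcr2 start and, reversed, 227 to 222 bases before the Xcl1 start. Reversed NFAT letters lay 59 to 55 and 34 to 30 bases before the Ccl3 start and 100 to 96 bases before the Xcl1 start, and AP-1 letters lay 200 to 194 bases before the Havcr2 start. Of 32851 promoters of that length, 55.6% held the NFAT letters, 6.75% the AP-1 letters and 14% the RUNX letters. A match is a description of the letters and no measure of binding. Ccl4 is not among the sequences used here. On GRCm38 (GENCODE M21), Ccl3 lies at chr11:83647844-83649355 on the minus strand and Ccl4 at chr11:83662584-83664683 on the plus strand, Havcr2 at chr11:46454935-46481255 on the plus strand and Xcl1 at chr1:164931644-164935527 on the minus strand, and all 4 are protein-coding.

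Ccl3, Ccl4 and Havcr2 were not used by the rule but were named as markers with these data known, so their levels in the 6 sets of Cd3 cells are a description. The other sets were CD8 cells with a Tcf7, Lef1 or Dapl1 UMI, cycling cells (a Top2a or Mki67 UMI), cells with Cd4, cells with Foxp3, and cells with neither Cd8 nor Cd4. Ccl4, which encodes the chemokine MIP-1β, was at 5360 and 3175 CPM in effector CD8 T cells of the Sema4d-shRNA libraries and at 3345 and 2988 CPM in those of the NC libraries. CD8 cells with Tcf7, Lef1 or Dapl1 had 598 and 1166 CPM in the Sema4d-shRNA libraries and 1763 and 725 CPM in the NC libraries, and no other set was above 883 CPM. The effector cells were the highest of the 6 sets in all 4 libraries, with no overlap.

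Ccl3, which encodes the related chemokine MIP-1α, was at 1527 and 850 CPM in effector CD8 T cells of the Sema4d-shRNA libraries and at 1480 and 926 CPM in the NC libraries. The next level was again in CD8 cells with Tcf7, Lef1 or Dapl1, at 290 and 356 CPM against 682 and 0 CPM, where 3 UMIs would give 72.5 CPM in the library at 0. Replicate 1 was the higher one within each group. Havcr2 was at 150 and 101 CPM in effector CD8 T cells of the Sema4d-shRNA libraries and at 175 and 123 CPM in the NC libraries. It was at 34.6 and 39.9 CPM against 33.1 and 72.9 CPM in cycling cells and at no more than 32.4 CPM in CD8 cells with Tcf7, Lef1 or Dapl1. The Foxp3 set, with 3 to 13 cells per library, held Havcr2 at 89.2 CPM in Sema4d-shRNA replicate 1 and 156 CPM in NC replicate 1, and at 0 in the other libraries. These Foxp3 values are below the level of 3 UMIs, which was 268 and 468 CPM there.

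As shares of cells, a Ccl4 UMI was found in 64.8% and 61.8% of effector CD8 T cells of the Sema4d-shRNA libraries and in 60.5% and 60.5% of the NC libraries. A Ccl3 UMI was found in 39.3% and 37.4% against 42.1% and 39.5%, and a Havcr2 UMI in 29.5% and 19.3% against 28.9% and 25%. To compare depths, each cell was thinned to 1000 UMIs. Havcr2 was then found in 9.02% and 9.92% of effector CD8 T cells of the Sema4d-shRNA libraries and in 11.4% and 11.8% of the NC libraries, and in 0.2% to 0.6% of tumour cells, which should lack it and had median depths of 9452 to 11053 UMIs before thinning. Ccl3 was found after thinning in 25.5% to 33.6% of effector cells and in 0.1% to 0.4% of tumour cells. All these shares lay far above those of the tumour cells.

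The cytotoxic genes had separate patterns over the sets. Prf1 encodes perforin, the pore-forming protein of the granules, and was at 493 and 505 CPM in effector CD8 T cells of the Sema4d-shRNA libraries and at 471 and 360 CPM in the NC libraries. CD8 cells with Tcf7, Lef1 or Dapl1 had 34.2 and 308 CPM against 370 and 48.3 CPM, so the effector cells were the highest set in every library, but the gap in NC replicate 1 was small. Gzmb encodes granzyme B, a protease that triggers death of the target cell. It was at 2025 and 1103 CPM in effector CD8 T cells of the Sema4d-shRNA libraries and at 1464 and 1886 CPM in the NC libraries. In the few Foxp3 cells Gzmb was at 2765 and 951 CPM against 1248 and 3734 CPM, so for Gzmb the effector cells were not the highest set in 2 of the 4 libraries. Ctla4, an inhibitory receptor that regulatory T cells carry constitutively, was at 165 and 153 CPM against 91.5 and 96.5 CPM in effector cells and at 566 to 2746 CPM in Foxp3 cells.

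**Figure D1:**
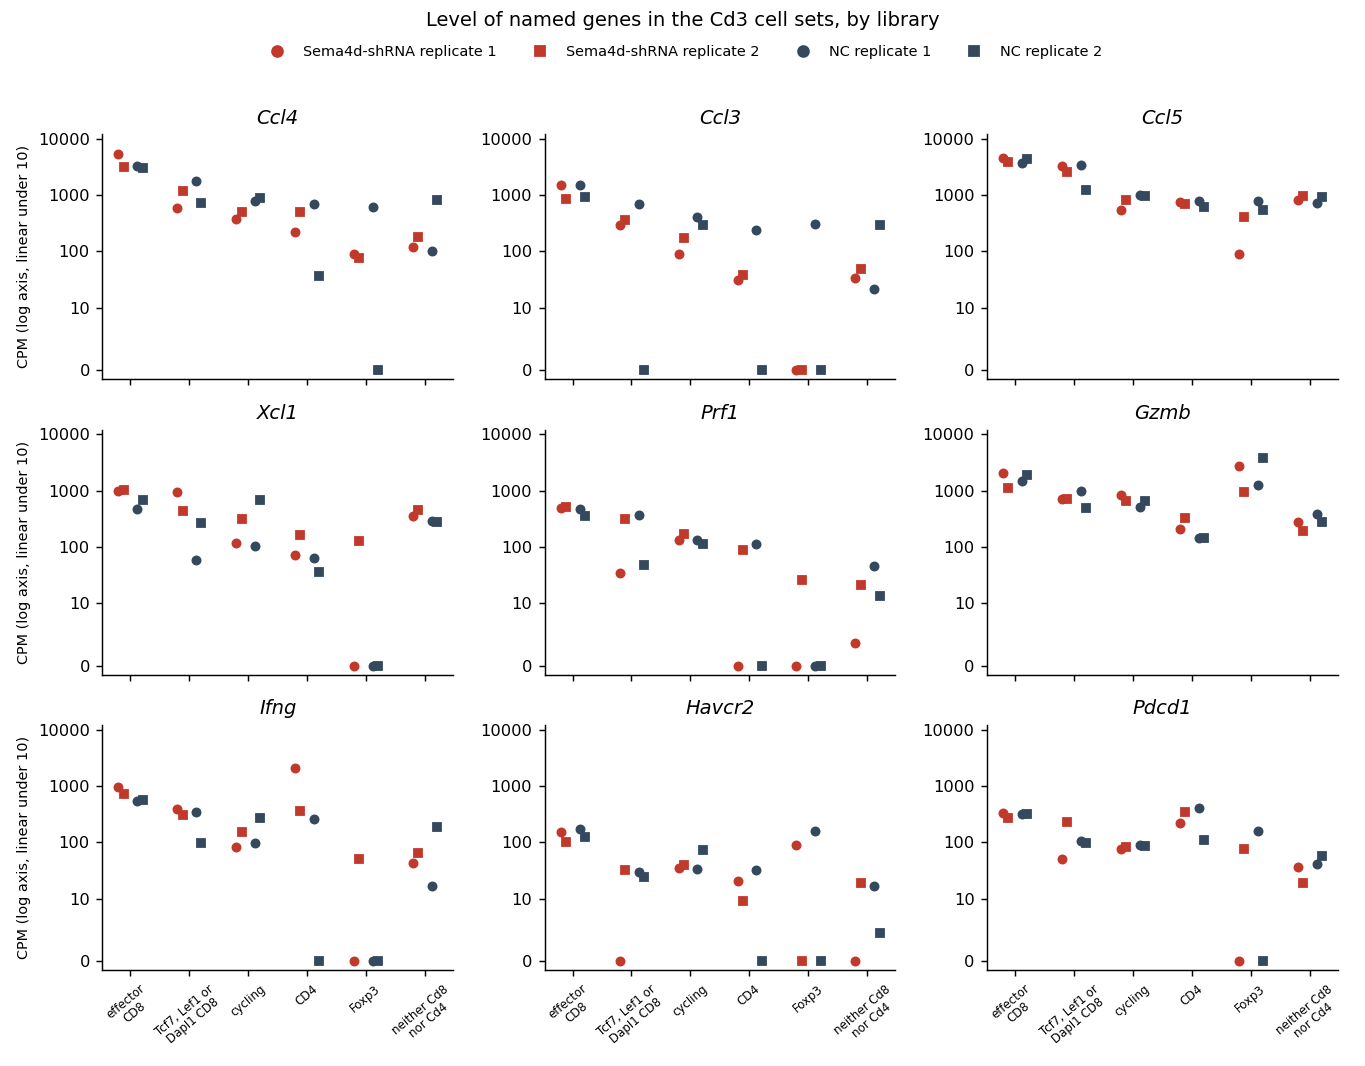
Level of 9 genes in the 6 sets of Cd3 cells, in CPM on an axis that is logarithmic above 10, with 1 point per library (red, Sema4d-shRNA; dark, NC; circle, replicate 1; square, replicate 2). Ccl4 and Ccl3 were highest in effector CD8 T cells in all 4 libraries, whereas Gzmb reached 2765 and 3734 CPM in the Foxp3 cells of Sema4d-shRNA replicate 1 and NC replicate 2.

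Against all other Cd3 cells, effector CD8 T cells carried more RNA of interferon gamma, perforin, Ccl5, the receptor chains of Klrd1 and Klrc1, and PD-1. Over 7101 genes, with the genes of the rule left out, 1001 were higher in effector CD8 T cells (14.1% of those tested) and 1071 were lower (15.1%), 29.2% in all, in edgeR's quasi-likelihood test with library as a block; without Sema4d-shRNA replicate 2 both counts were 610. The named genes are the 15 with the greatest difference each way among those called and at 100 CPM or more. Ifng was at 967 and 728 CPM in effector CD8 T cells of the Sema4d-shRNA libraries and at 549 and 562 CPM in those of the NC libraries, against 178 and 138 CPM and 90.6 and 214 CPM in other Cd3 cells, a log2 difference of 2.31 (SE 0.18, adjusted p = 1.58e-06). The effector cells lay above the other cells in each library, without overlap. Prf1 differed by 2.30 (SE 0.12, adjusted p = 5.73e-15) and Ccl5, a further chemokine, by 2.26 (SE 0.11, adjusted p = 3.42e-11). Klrd1 and Klrc1, which encode the CD94 and NKG2A chains of an inhibitory receptor, differed by 2.14 (SE 0.13) and 2.05 (SE 0.14). Pdcd1 was at 333 and 266 CPM in effector CD8 T cells of the Sema4d-shRNA libraries and 318 and 311 CPM in those of the NC libraries, and at 69.6 to 89.8 CPM in other Cd3 cells (log2 2.02, SE 0.13, adjusted p = 2.46e-13). The remaining genes of the 15 were the markers Ccl4, Ccl3 and Havcr2, given with no test at log2 2.91, 2.82 and 2.20, and Pou2f2, Nrgn, Cd160, Rgs16, Slamf7 and Nkg7, at log2 2.01 to 2.28.

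The size of these differences depended on which cells stood on the other side. Other Cd3 cells include cells with a single Cd3 UMI, which were 24.6% to 45% of the cells with neither Cd8 nor Cd4 and 26.8% to 37.3% of the cycling cells, and their tumour markers summed to 7211 to 11987 CPM, against 4454 to 5695 CPM in effector CD8 T cells. The part of such cells in the counts was not tested. Against the other Cd3 cells that had Cd8, which numbered 61 and 184 in the Sema4d-shRNA libraries and 65 and 49 in the NC libraries, 102 of 4285 genes were higher (2.38%) and 172 lower (4.01%), 6.39% in all. Of the 12 named genes that are not given markers, 10 were called, all 12 were above 0, and their log2 differences ran from 0.54 to 1.34. These genes had been chosen against all other Cd3 cells, which include this set and the narrower sets below. Their direction and calls here are therefore no independent support. Prf1 stood at 0.54 (SE 0.14, adjusted p = 0.024), Ccl5 at 1.22 (SE 0.21, adjusted p = 0.042), Pdcd1 at 0.72 (SE 0.15, adjusted p = 0.0049) and Cd160, an inhibitory receptor of the immunoglobulin family, at 1.34 (SE 0.24, adjusted p = 0.0012). Ifng, at 1.16 (SE 0.32, adjusted p = 0.13), and Nrgn were not called. Against cells with Cd4 or Foxp3, 104 of 2773 genes were higher (3.75%) and 117 lower (4.22%), 7.97% in all, and 11 of the 12 were called, all but Ifng, which was at 2095 CPM in the Cd4 cells of Sema4d-shRNA replicate 1. Against other Cd3 cells with at least 2 Cd3 UMIs that were not cycling, a set chosen after seeing the data, 132 of 4120 genes were higher (3.2%) and 178 lower (4.32%), 7.52% in all, and 10 of the 12 were called, without Ifng and Prf1.

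**Figure D2:**
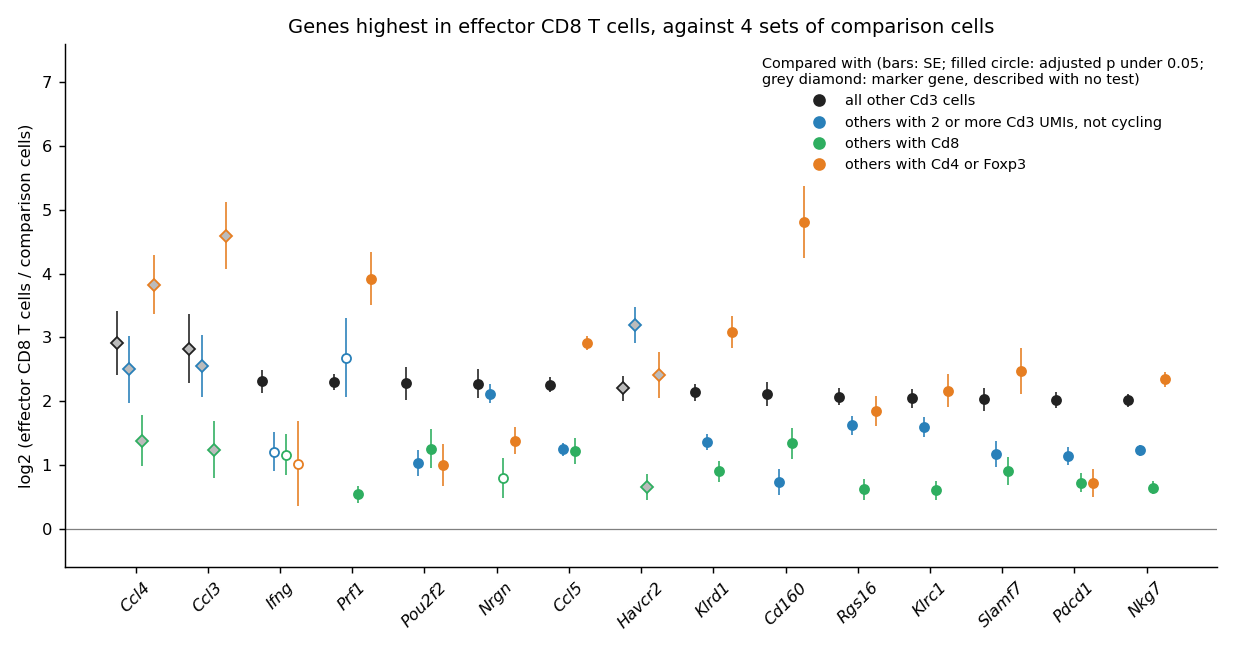
Log2 difference (effector CD8 T cells over comparison cells, with SE) of the 15 genes that were highest against all other Cd3 cells, for 4 sets of comparison cells. All 15 lie above 0 in each comparison, but they were chosen against all other Cd3 cells, which include the other comparison sets. The differences against other cells with Cd8 are the smallest for most genes, as for Prf1 at 0.54 against 2.30.

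By gene list, the counts of genes called higher are to be read against those over all genes, which were 14.1% against all other Cd3 cells, 2.38% against cells with Cd8 and 3.2% against the non-cycling cells with 2 Cd3 UMIs; the shares called lower were 15.1%, 4.01% and 4.32% in the same order. The markers Ccl3, Ccl4 and Havcr2 are left out of these list counts against other Cd3 cells. Of 6 other chemokines tested, 2 were higher than in all other Cd3 cells (median log2 1.29), 1 of 4 was higher than in cells with Cd8 (median 0.97) and 2 of 4 than in the non-cycling cells with 2 Cd3 UMIs (median 0.87), and none was lower. Of 18 cytotoxic granule genes tested, 13 were higher and 1 lower than in all other Cd3 cells (median log2 1.19, against 0.01 over all genes). Against other cells with Cd8, 5 of 17 were higher and 1 lower (median 0.34), and against the non-cycling cells with 2 Cd3 UMIs 6 of 16 were higher (median 0.50). The one that was lower against all other Cd3 cells was Lamp1, a lysosomal membrane protein (log2 -0.85, SE 0.15). Gzmb was among the higher ones against all other Cd3 cells, at 1.61 (SE 0.10), but against cells with Cd8 it stood at 0.23 (SE 0.12, adjusted p = 0.32). Of 13 inhibitory receptors 9 were higher (median 1.16), against cells with Cd8 5 of 10 were (median 0.70), and against the non-cycling cells with 2 Cd3 UMIs 3 of 9 were (median 0.42). Lag3, a receptor for MHC class II, was at 74.8 and 54.3 CPM in effector CD8 T cells of the Sema4d-shRNA libraries and at 61.9 and 17.5 CPM in the NC libraries, and at 7.22 to 13.1 CPM in other Cd3 cells. Ctla4 went the other way against cells with Cd4 or Foxp3 (log2 -1.48, SE 0.22). Of 12 NK receptor genes tested, 5 were higher and 3 lower than in all other Cd3 cells (median 0.32). Against cells with Cd8, 5 of 7 were higher and 0 lower (median 0.60). Against the non-cycling cells with 2 Cd3 UMIs, 4 of 10 were higher and 4 lower (median -0.82).

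Among transcription factors of effector and exhausted cells, 17 of 20 were higher than in all other Cd3 cells and 1 lower, against 14.1% and 15.1% of all genes. Against cells with Cd8, 2 of 18 were higher, and against the non-cycling cells with 2 Cd3 UMIs 6 of 19 were higher and 2 lower. Irf4, a factor induced by the T cell receptor, differed by 2.19 (SE 0.25) and Nr4a3, an orphan nuclear receptor induced the same way, by 2.12 (SE 0.28). Maf was the lower one, at 7.90 to 13.5 CPM in effector CD8 T cells and 55.2 to 88.6 CPM in other Cd3 cells (log2 -2.55, SE 0.28). Tox, which maintains exhausted CD8 T cells, was higher by 0.86 (SE 0.23, adjusted p = 0.0046) but stood at -0.65 (SE 0.36) against cells with Cd4 or Foxp3 and at -0.29 (SE 0.29) against the non-cycling cells with 2 Cd3 UMIs. Of 38 interferon response genes, 6 were higher, a share near the 14.1% of all genes, and 15 were lower, against 15.1% (median -0.24), and against the non-cycling cells with 2 Cd3 UMIs 0 were higher and 10 of 31 lower, against 4.32% of all genes (median -0.50); against cells with Cd8 1 of 29 was higher and 0 lower (median 0.07). The non-cycling set included the cells with neither Cd8 nor Cd4, whose NK marker sums were 515 to 988 CPM. Of 16 naive and memory genes, with the 3 of the rule left out, 3 were higher and 7 lower (median -0.23), and the higher count is again near the share of all genes. Against cells with Cd8, 1 of 11 was higher and 0 lower (median -0.07). Against the non-cycling cells with 2 Cd3 UMIs, 0 were higher and 6 of 12 lower (median -0.37). The rule itself placed cells with Tcf7, Lef1 or Dapl1 UMIs among the other cells, so the lower counts of this list are a description and no independent support. Cxcr3, a chemokine receptor of type 1 immunity, was at 30.7 to 43.8 CPM in effector CD8 T cells and 20.1 to 34.8 CPM in other Cd3 cells (log2 0.59, SE 0.26, adjusted p = 0.082; without NC replicate 2 it was called, at 0.74, adjusted p = 0.034), and was lower than in the non-cycling cells with 2 Cd3 UMIs (log2 -1.16, SE 0.25, adjusted p = 0.00084).

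The counts for cytokine genes, costimulatory receptors and homing genes depended on the comparison cells, and the shares of all genes called higher were 14.1%, 2.38% and 3.2% as above. Of 8 effector cytokines and death ligands 7 were higher than in all other Cd3 cells (median 1.18), and against cells with Cd8 0 of 7 were called (median 0.26); against the non-cycling cells with 2 Cd3 UMIs 1 of 7 was higher and 1 lower (median 0.23). Fasl, the death ligand of the TNF family, was at 64.5 and 60.2 CPM in effector CD8 T cells of the Sema4d-shRNA libraries and at 61.9 and 57.0 CPM in those of the NC libraries, and at 16.4 to 26.9 CPM in other Cd3 cells (log2 1.68, SE 0.23). Against cells with Cd8 it stood at 0.64 (adjusted p = 0.16). Of 11 costimulatory receptors 9 were higher and 1 lower, and 6 of 11 were higher than in cells with Cd8, while against the non-cycling cells 4 of 11 were higher and 4 lower (median 0.079). Tnfrsf9 was at 563 to 777 CPM in effector CD8 T cells and 234 to 272 CPM in other Cd3 cells (log2 1.41, SE 0.10), and at 0.57 (adjusted p = 0.021) against cells with Cd8. Of 17 homing and tissue residency genes 12 were higher, and against cells with Cd8 4 of 16; against the non-cycling cells 4 of 16 were higher and 4 lower. Cxcr6, the receptor for CXCL16, differed by 1.71 (SE 0.14) and by 0.79 (adjusted p = 0.0016) against cells with Cd8.

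Gzma, Xcl1 and Gzmk did not pass the test against all other Cd3 cells with all libraries in. Gzma stood at 1.59 (SE 0.63, adjusted p = 0.18), Xcl1 at 1.57 (SE 0.36, adjusted p = 0.053) and Gzmk, which encodes granzyme K, at 1.79 (SE 0.60, adjusted p = 0.085). Gzma was called without NC replicate 1 (2.14, adjusted p = 0.0012). Xcl1 was called without Sema4d-shRNA replicate 1 (1.29, adjusted p = 0.00098) or NC replicate 2 (1.90, adjusted p = 3.93e-11) and by DESeq2, and Gzmk likewise without Sema4d-shRNA replicate 1 (1.24, adjusted p = 0.020) or NC replicate 2 (2.39, adjusted p = 6.86e-07) and by DESeq2. Gzmk was at 39.5 to 87.7 CPM in effector CD8 T cells, and at 53.8 CPM in other Cd3 cells of NC replicate 2 against 8.77 to 13.5 CPM in those of the other libraries. Sema4d was at 172 to 246 CPM in effector CD8 T cells and at 71.2 to 146 CPM in other Cd3 cells (log2 1.12, SE 0.13), but at -0.013 (adjusted p = 0.98) against the non-cycling cells with 2 Cd3 UMIs. Nr4a1, an immediate target of T cell receptor signals, was higher by 0.83 (SE 0.23, adjusted p = 0.0071) and stood at -0.28 (adjusted p = 0.59) against those non-cycling cells.

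Of the 15 genes named as lowest against all other Cd3 cells, at least 6 are genes of cell division, and cells with Top2a or Mki67 UMIs had been removed by the rule. These were Birc5, Ube2c, Cks1b, 2810417H13Rik and the histone genes Hist1h3c and Hist1h2ae. Ankrd1, Prkg2, Cald1, Ccnd1, Gpx8, Wwtr1, Htra1, Nupr1 and Ncam1 made up the remaining 9, of which Ccnd1 encodes a cyclin and also acts in the cell cycle. Against the non-cycling cells with 2 Cd3 UMIs, 8 of the 15 were tested and all 8 lay above 0, at log2 0.05 to 1.09. Against cells with Cd8, 12 of the 15 were tested, all 12 lay below 0 and 6 were called, and against cells with Cd4 or Foxp3, 9 were tested, 5 lay below 0 and 4 were called. The 15 had been chosen against all other Cd3 cells, which include these sets.

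Within the effector CD8 T cells, some of these genes were found together in the same cells. Cells of 1 library share their source, and 353 of the 665 came from Sema4d-shRNA replicate 2. The shares that follow are over the cells of all 4 libraries, thinned to 1000 UMIs, with exact binomial intervals at 95% that cover counting error only. Of the 186 cells with a Ccl3 UMI, 84.9% (79.0% to 89.8%) also had Ccl4, against 34.7% (30.4% to 39.1%) of the 479 without. Ifng was found in 54.3% (46.9% to 61.6%) against 24.4% (20.6% to 28.5%), and Tnfrsf9, the activation-induced receptor 4-1BB, in 54.3% (46.9% to 61.6%) against 33.0% (28.8% to 37.4%). Gzmb was found in 49.5% (42.1% to 56.9%) and 45.3% (40.8% to 49.9%), intervals that overlap. Of the 68 cells with a Havcr2 UMI, 51.5% (39.0% to 63.8%) had Prf1, against 25.8% (22.3% to 29.5%) of the 597 without. Pdcd1 was found in 38.2% (26.7% to 50.8%) against 23.1% (19.8% to 26.7%), while Ccl4 was found in 50% (37.6% to 62.4%) and 48.6% (44.5% to 52.7%). Over 1227 genes, those whose level per cell went most closely with Havcr2, by the mean over the 4 libraries of Pearson's r between cells, were Prf1 (0.21), Cblb (0.16), Fam133b (0.15) and Pdcd1 (0.15). In counts this sparse, r of that size is a description only.

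The share of effector CD8 T cells among Cd3 cells was close in the Sema4d-shRNA and NC tumours, and their share among all cells was higher in both Sema4d-shRNA libraries than in both NC libraries, without passing the test. They made up 28.6% (24.3% to 33.1%, exact 95% interval) and 39.2% (36.0% to 42.5%) of Cd3 cells in the Sema4d-shRNA libraries and 31.8% (27.0% to 36.9%) and 33.8% (27.6% to 40.4%) in the NC libraries. The Sema4d-shRNA libraries lay on either side of the NC libraries, with means of 33.9% ± 7.53 and 32.8% ± 1.37 (SD, n = 2 each). The log2 difference was 0.07 (SE 0.20, adjusted p over the 6 sets = 0.93 in edgeR's quasi-likelihood test on cell numbers), and without Sema4d-shRNA replicate 2 it was -0.19. No set of the 6 differed at an adjusted p under 0.05. Of all cells with at least 300 genes, effector CD8 T cells were 1.16% (0.962% to 1.38%) and 2.69% (2.42% to 2.98%) in the Sema4d-shRNA libraries. They were 1.05% (0.868% to 1.26%) and 0.718% (0.566% to 0.898%) in the NC libraries (log2 1.12, SE 0.72, adjusted p = 0.25). The intervals of Sema4d-shRNA replicate 1 and NC replicate 1 overlap, and without Sema4d-shRNA replicate 2 the difference was 0.39. With this denominator the other 5 sets of Cd3 cells stood at log2 0.87 to 1.04. A further denominator was the number of cells under the tumour limit with a UMI of Ptprc, the gene of the leukocyte antigen CD45. Effector CD8 T cells, with or without a Ptprc UMI of their own, were set against it. Their number was 8.60% and 17.3% of it in the Sema4d-shRNA libraries and 5.06% and 3.12% in the NC libraries, without overlap (log2 1.67, SE 0.71, adjusted p = 0.053). The other 5 sets of Cd3 cells stood at log2 1.44 to 1.61 with that denominator, so the effector cells did not stand apart from them.

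**Figure D3:**
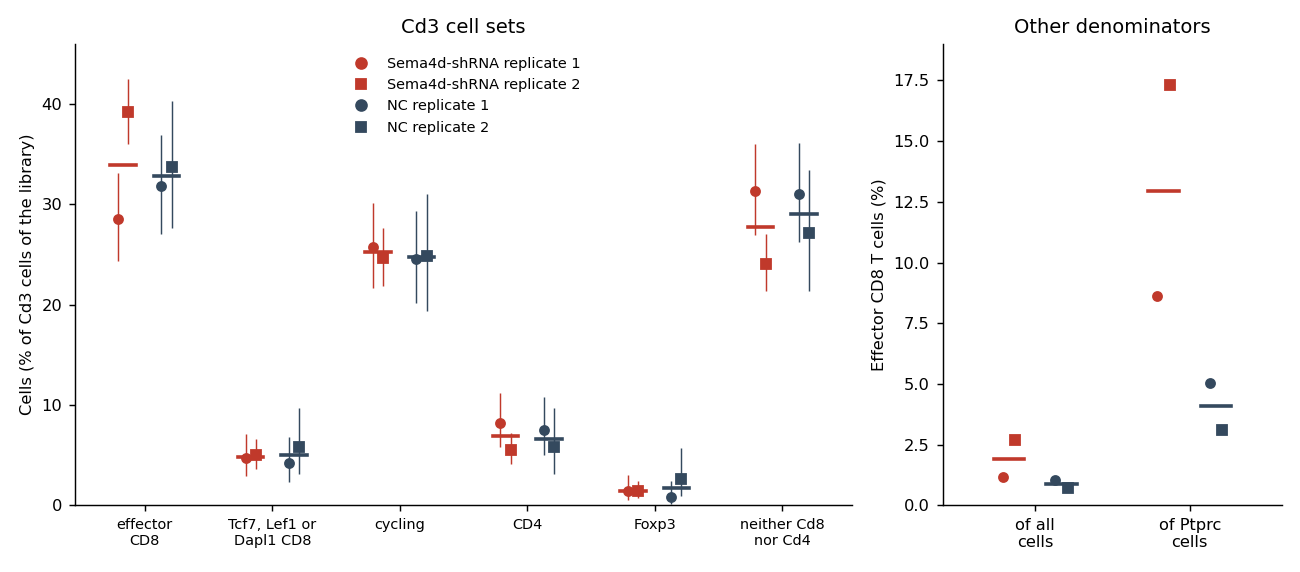
Left, the 6 sets of Cd3 cells as a percentage of the Cd3 cells of each library, with exact 95% intervals. Right, the number of effector CD8 T cells, with or without Ptprc, as a percentage of all cells and of the number of cells with Ptprc under the tumour limit. Bars are group means of 2 libraries; among Cd3 cells the Sema4d-shRNA libraries, at 28.6% and 39.2%, lie on either side of the NC libraries, at 31.8% and 33.8%.

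In the comparison of Sema4d-shRNA with NC tumours, effector CD8 T cells of the Sema4d-shRNA libraries had more Xcl1, Junb, Rgs2 and Rpl23a RNA and less RNA of the mitochondrial genome. The higher calls depended on the processing: of 13 alternatives, Junb was called in 9, Rgs2 in 6, Xcl1 in 5 and Rpl23a in 4. Of 4375 genes tested, 16 passed an adjusted p of 0.05 (0.366%), 4 higher (0.0914%) and 12 lower (0.274%), and 307 had an unadjusted p under 0.05. The labels do not say whether the replicates are separate animals, so p-values measure the spread between these libraries, which may be technical. Summed counts cannot separate a change in which of these cells are present from a change of RNA per cell. With 2 libraries a group, the smallest two-sided p of an exact permutation is 0.333, so the tests borrow the spread of all genes. Groups that do not overlap reach no less than that 0.333, and the share of all genes without overlap is not given here. Where the text says that groups do not overlap, that is a description of the values and no support for a difference. Leaving out Sema4d-shRNA replicate 1, NC replicate 1 or NC replicate 2 gave 12, 12 and 10 higher genes in place of 4, leaving out NC replicate 2 gave 21 lower genes in place of 12, and DESeq2 called 1 gene higher.

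Xcl1 encodes lymphotactin, a chemokine that attracts cross-presenting dendritic cells through XCR1. It was at 998 and 1016 CPM in the Sema4d-shRNA libraries and at 460 and 689 CPM in the NC libraries (log2 0.87, SE 0.16, adjusted p = 0.0050). Both Sema4d-shRNA libraries lay above both NC libraries. The share of effector CD8 T cells with an Xcl1 UMI was 20.5% and 25.2% in the Sema4d-shRNA libraries and 22.8% and 21.1% in the NC libraries, and overlapped; it was 0.3% to 1.9% in tumour cells. The UMIs per cell that had any were 15.5 and 11.6 against 6.58 and 9.81, with 127 and 228 in the highest cell against 35 and 60. Without Sema4d-shRNA replicate 1 the log2 difference was 0.89 (adjusted p = 0.11), without Sema4d-shRNA replicate 2 0.86 (adjusted p = 0.27) and without NC replicate 1 0.63 (adjusted p = 0.19), so the call needed each of these libraries. It was also lost when the cells with the highest doublet scores were left out (log2 0.57, adjusted p = 0.053). In other Cd3 cells Xcl1 stood at log2 -0.14 (adjusted p = 0.98).

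Junb, an AP-1 transcription factor induced within minutes of stimulation, was at 560 and 695 CPM in the Sema4d-shRNA libraries and at 379 and 342 CPM in the NC libraries (log2 0.83, SE 0.17, adjusted p = 0.015). Rgs2, a regulator of G protein signalling, was at 258 and 341 CPM against 161 and 154 CPM (log2 0.98, SE 0.21, adjusted p = 0.022). Neither gene overlapped between the groups, and both were lowest in NC replicate 2. Rpl23a, a ribosomal protein, was at 3273 and 3112 CPM against 2253 and 2514 CPM (log2 0.46, SE 0.10, adjusted p = 0.043), and its reads may be shared with processed copies of the gene. Of 80 ribosomal protein genes tested, a list added after seeing the data, 70 lay above 0 (median 0.12) and 1 was called. Of all 4375 genes tested, 2226 lay above 0. In other Cd3 cells Junb stood at log2 0.21, Rgs2 at 0.30 and Rpl23a at 0.36. In tumour cells they stood at 0.27, 0.26 and 0.37, and none was called in either. Junb was not called without Sema4d-shRNA replicate 2 (log2 0.66, adjusted p = 0.68) or without NC replicate 2 (log2 0.75, adjusted p = 0.071). Rgs2 was not called without Sema4d-shRNA replicate 2 (log2 0.74, adjusted p = 0.74), NC replicate 1 (log2 1.07, adjusted p = 0.055) or NC replicate 2 (log2 0.92, adjusted p = 0.062), and Rpl23a was not called without any 1 of the 4 libraries (log2 0.43 to 0.52, adjusted p = 0.13 to 0.40).

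Cd69, Ddit4, Nfkbia, Zfp36 and Ifng had adjusted p-values just over the threshold. Cd69, an early activation antigen, was at 168 and 206 CPM in the Sema4d-shRNA libraries and at 96.9 and 96.5 CPM in the NC libraries (log2 1.01, SE 0.24, adjusted p = 0.064). Ifng was at 967 and 728 CPM against 549 and 562 CPM (log2 0.63, SE 0.16, adjusted p = 0.078), and an Ifng UMI was found in 50% and 56.7% of the cells against 41.2% and 36.8%, and in 0.3% to 1.1% of tumour cells. The groups did not overlap for either gene, and neither passed the test on all cells. Each was called in 3 of 13 alternatives. Cd69 was called with no filter on low counts (log2 1.05, adjusted p = 0.010), without the highest doublet scores (1.10, adjusted p = 0.0074) and with limits of 5 per 10000 on tumour and C1q genes (1.17, adjusted p = 0.016). Ifng was called with no filter (0.67, adjusted p = 0.0049), on thinned cells (1.11, adjusted p = 0.00055) and with limits of 5 per 10000 (0.68, adjusted p = 0.040). Ddit4 (log2 1.22, adjusted p = 0.064), Nfkbia (log2 0.82, adjusted p = 0.073) and Zfp36 (log2 0.98, adjusted p = 0.076) also missed it, and each was called in 3 alternatives. Of the 29 immediate early and heat shock genes tested, 25 had a log2 difference above 0, against 2226 of all 4375 genes. Their median was 0.48 against 0.01 over all genes, and 1, Junb, was called. In other Cd3 cells 27 of 32 lay above 0 (median 0.26) and in tumour cells 24 of 32 (median 0.19), with none called in either. Without Sema4d-shRNA replicate 2 the median in effector CD8 T cells was 0.15, with 21 of 31 above 0.

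The lower genes were mostly encoded by the mitochondrial genome. All 11 mitochondrially encoded genes tested lay below 0, with a median log2 difference of -1.71, and 9 were called. mt-Co1, a subunit of cytochrome c oxidase, was at 766 and 1193 CPM in the Sema4d-shRNA libraries and at 3125 and 3540 CPM in the NC libraries (log2 -1.71, SE 0.19, adjusted p = 0.0050). mt-Cytb, a subunit of complex III, was at 230 and 334 CPM against 1012 and 1044 CPM (log2 -1.80, SE 0.17, adjusted p = 2.71e-07). The groups were far apart for both genes, and Sema4d-shRNA replicate 1 was the lowest library. The same genes were lower in other Cd3 cells, where 12 of 12 lay below 0 and 9 were called (median -1.40), and in tumour cells, where 13 of 13 lay below 0 and 1 was called (median -1.04). In all, 19 of 9390 genes were called in other Cd3 cells (0.202%), 4 higher (0.0426%) and 15 lower (0.16%), and 39 of 14249 in tumour cells (0.274%), 7 higher (0.0491%) and 32 lower (0.225%). Of the 9 called genes, mt-Atp8 was not called without Sema4d-shRNA replicate 1 (log2 -1.28, adjusted p = 0.27), Sema4d-shRNA replicate 2 (log2 -2.23, adjusted p = 0.089) or NC replicate 1 (log2 -1.31, adjusted p = 0.16); the other 8 were called without any 1 library.

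Apoe, Nkain2 and Gm10800 were the 3 other lower genes. Apoe, an apolipoprotein that macrophages make in quantity, was at 80.0 and 73.1 CPM in the Sema4d-shRNA libraries and at 156 and 175 CPM in the NC libraries (log2 -1.09, SE 0.24, adjusted p = 0.031). The macrophage marker sum given above, which includes Apoe, moved with it, and Apoe was lower in other Cd3 cells too (log2 -0.95, adjusted p = 0.029); the part of macrophage RNA in the result was not tested. Leaving out any 1 library ended the Apoe call (adjusted p = 0.062 to 0.74). Nkain2, a membrane protein that interacts with the sodium pump, was at 219 and 162 CPM against 328 and 426 CPM (log2 -0.97, SE 0.20, adjusted p = 0.016). It stood at log2 -1.25 in other Cd3 cells (adjusted p = 0.0045) and -0.96 in tumour cells (adjusted p = 0.13), and its call in effector CD8 T cells was lost without Sema4d-shRNA replicate 1 (log2 -1.16, adjusted p = 0.065), Sema4d-shRNA replicate 2 (log2 -0.72, adjusted p = 0.74) or NC replicate 2 (log2 -0.81, adjusted p = 0.099). Gm10800, a predicted gene, had 0 and 2 UMIs in the Sema4d-shRNA libraries and 59 and 19 UMIs in the NC libraries. In edgeR's quasi-likelihood test its log2 difference was -6.21 (SE 0.60, adjusted p = 3.37e-07). The ratio of its UMIs per total, pooled over the libraries of a group, was 0.011 (exact 95% counting interval 0.0013 to 0.041). That interval takes UMIs as independent, whereas 1 cell held 12 of the 19 UMIs of NC replicate 2. In other Cd3 cells it had 28 and 25 UMIs against 261 and 14.

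**Figure D4:**
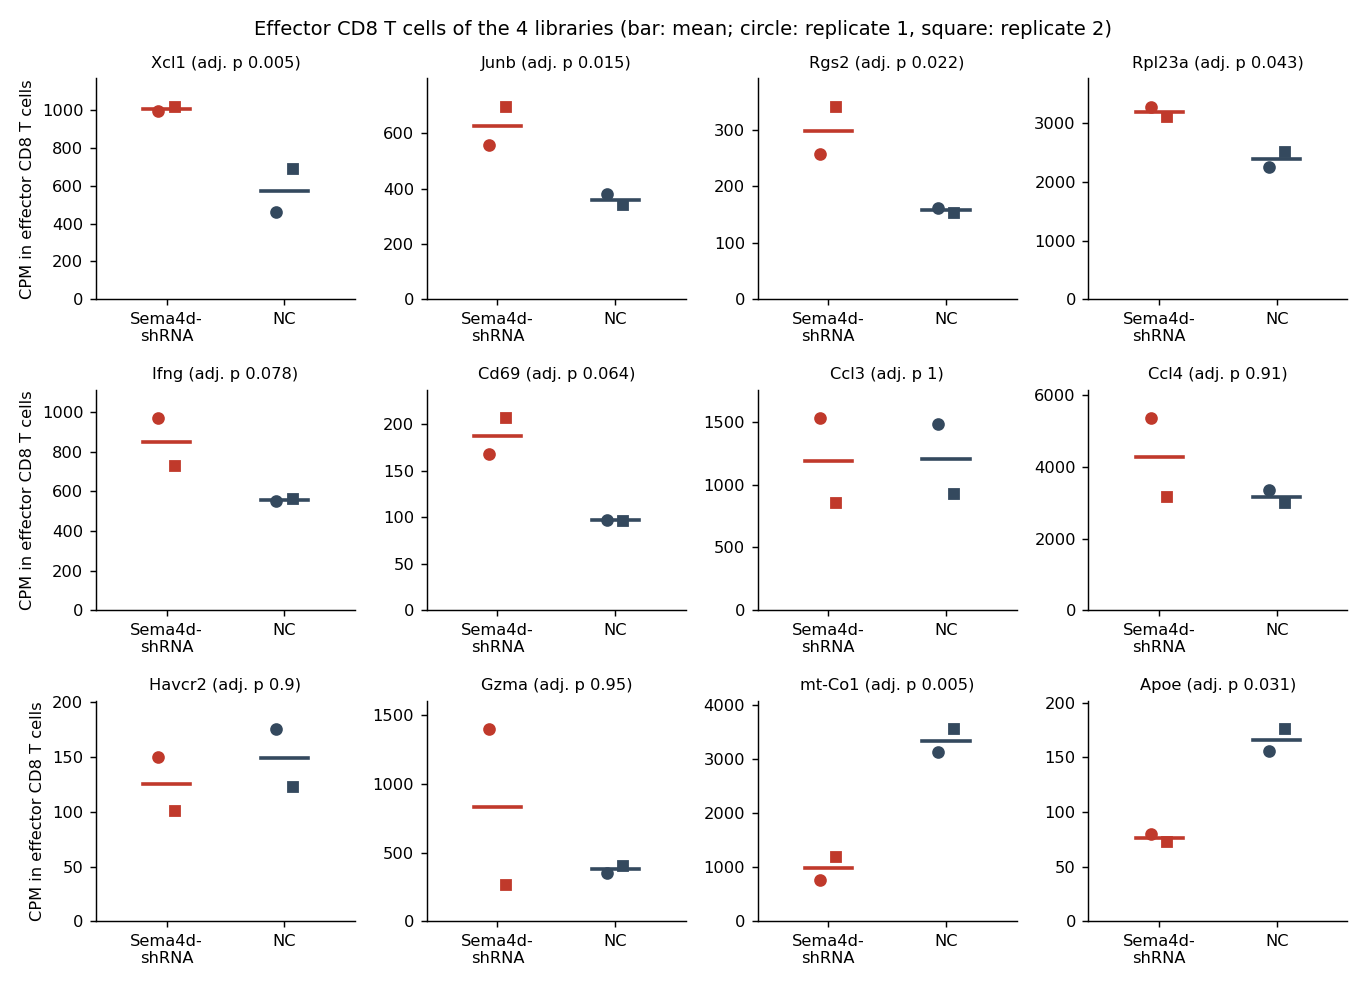
Level in effector CD8 T cells, in CPM on axes that start at 0, of 12 genes in the Sema4d-shRNA and NC libraries, with the adjusted p of edgeR's quasi-likelihood test. The groups do not overlap for Xcl1, Junb, Rgs2, Rpl23a, Ifng, Cd69, mt-Co1 and Apoe, and they overlap for Ccl3, Ccl4, Havcr2 and Gzma, where 1398 CPM in Sema4d-shRNA replicate 1 stands above 263 CPM in replicate 2. With 2 libraries a group, non-overlap is a description and no test.

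The genes that define the cells did not pass the test between the tumours with all libraries in. Ccl3, at the levels given above, had a log2 difference of -0.02 (SE 0.49) and Ccl4 of 0.46 (SE 0.34, adjusted p = 0.91), but without Sema4d-shRNA replicate 2 Ccl4 was called, at 0.79 (adjusted p = 0.0088). In other Cd3 cells edgeR's quasi-likelihood test called Ccl3 lower, at -1.39 (adjusted p = 0.019), and Ccl4 lower, at -0.96 (adjusted p = 0.048). There 1 cell held 53.7% of the Ccl3 UMIs of NC replicate 1. The interactions, at 1.36 (SE 0.83) for Ccl3 and 1.37 (SE 0.66) for Ccl4, were not called. In effector CD8 T cells Havcr2 stood at -0.32 (SE 0.25, adjusted p = 0.90) and Pdcd1 at -0.06 (SE 0.18, adjusted p = 0.99). Gzmb was at 2025 and 1103 CPM in the Sema4d-shRNA libraries and within that range, at 1464 and 1886 CPM, in the NC libraries (log2 -0.07, SE 0.40). Prf1 stood at 0.28 (SE 0.17, adjusted p = 0.82), Ccl5 at 0.11 (SE 0.10, adjusted p = 0.92), which was called with limits of 5 per 10000 (0.50, adjusted p = 0.016), and Nkg7, a granule membrane protein, at 0.23 (SE 0.11, adjusted p = 0.72). Gzma, which encodes granzyme A, was at 1398 and 263 CPM against 355 and 404 CPM (log2 1.11, SE 1.19), and its direction was that of 1 library: without Sema4d-shRNA replicate 1 it was -0.48, and without Sema4d-shRNA replicate 2 it was called, at 1.93 (adjusted p = 0.00018). With SEs of 0.49 for Ccl3, 0.40 for Gzmb and 1.19 for Gzma, differences of the size of the SE were not detectable in these libraries. Ctla4 was at 165 and 153 CPM against 91.5 and 96.5 CPM (log2 0.79, SE 0.24, adjusted p = 0.28) and Tox at 28.4 and 40.5 CPM against 75.4 and 79.0 CPM (log2 -1.05, SE 0.35, adjusted p = 0.37). Neither gene overlapped between the groups and neither was called. Lag3 was at 0.53 (SE 0.41), Tigit at 0.08 (SE 0.76), Gzmk at 0.39 (SE 0.41), Nr4a1 at 0.97 (SE 0.36, adjusted p = 0.52), Tnfrsf9 at -0.07 (SE 0.16), Cxcr6 at 0.32 (SE 0.18) and Cxcr3 at 0.22 (SE 0.41), none of them called. Of the CD8 genes that chose the cells, Cd8a was at 704 and 716 CPM in the Sema4d-shRNA libraries and 754 and 768 CPM in the NC libraries, and Cd8b1 at 967 and 1044 CPM against 826 and 812 CPM.

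Sema4d in the effector CD8 T cells was at 183 and 172 CPM in the Sema4d-shRNA libraries and at 229 and 246 CPM in the NC libraries (log2 -0.39, SE 0.20, adjusted p = 0.75). It was at 71.2 and 86.3 CPM against 106 and 146 CPM in other Cd3 cells (log2 -0.64, SE 0.20, adjusted p = 0.56). The groups did not overlap in either set of cells, and neither difference passed the test. Over the other lists no gene was called except Xcl1 among 6 chemokines. Of 17 cytotoxic granule genes 10 lay above 0 (median 0.16), of 13 inhibitory receptors 8 (median 0.08), of 19 transcription factors 9 (median -0.03), of 31 interferon response genes 14 (median -0.01) and of 17 MHC class I genes 11 (median 0.09). Of 10 costimulatory receptors 2 lay above 0 (median -0.07). These counts are to be read against 2226 of all 4375 genes above 0.

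**Figure D5:**
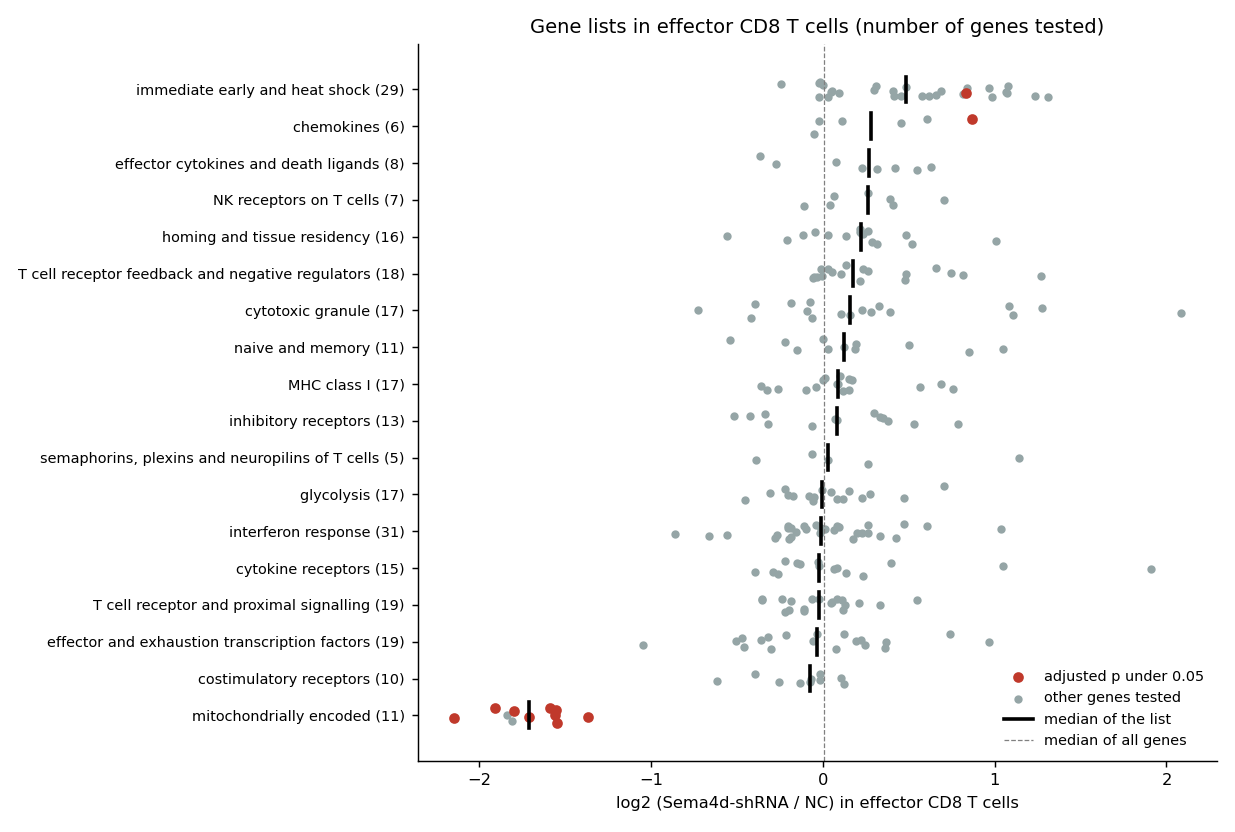
Log2 difference (Sema4d-shRNA over NC) in effector CD8 T cells of each gene tested in the 18 lists, 1 point per gene, with called genes in red and the list's median as a bar. The mitochondrially encoded list has a median of -1.71 and the immediate early and heat shock list 0.48, while the other lists have medians between -0.07 and 0.28 on the log2 scale.

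Whether the tumours' effect differed between effector CD8 T cells and other Cd3 cells was tested as an interaction. Of 8120 genes, 5 were called (0.0616%), 3 with a higher effect in effector CD8 T cells (0.0369%) and 2 with a lower one (0.0246%), and 415 had an unadjusted p under 0.05. Gzma was at 1398 and 263 CPM in effector CD8 T cells of the Sema4d-shRNA libraries and 355 and 404 CPM in those of the NC libraries, and in other Cd3 cells at 232 and 56.1 CPM against 395 and 180 CPM. A Gzma UMI was found in 6.56% and 5.12% of other Cd3 cells against 7.38% and 4.03%, shares that overlap. In other Cd3 cells of NC replicate 2, 1 cell held 52.6% of the Gzma UMIs. The difference of the effects was 2.07 (SE 0.25, adjusted p = 3.29e-07) and was called without any 1 library, at 1.41 to 2.58. Ltb, which encodes lymphotoxin beta, was at 400 and 399 CPM against 328 and 276 CPM in effector CD8 T cells and at 174 and 189 CPM against 270 and 285 CPM in other Cd3 cells. The groups did not overlap and lay in opposite order in the 2 sets of cells, with a difference of the effects of 1.04 (SE 0.23, adjusted p = 0.016). It was not called without Sema4d-shRNA replicate 1 (0.98, adjusted p = 0.66), Sema4d-shRNA replicate 2 (1.14, adjusted p = 0.17) or NC replicate 2 (0.84, adjusted p = 0.36). Ifitm1, an interferon-induced membrane protein, went the other way, at 707 and 474 CPM against 436 and 570 CPM in effector CD8 T cells and 311 and 179 CPM against 76.0 and 45.9 CPM in other Cd3 cells (difference of the effects -1.61, SE 0.24, adjusted p = 5.5e-07). The remaining genes called were Igfbp3 and Ccl2. For Xcl1, at 0.89 (SE 0.45, adjusted p = 1.00), Junb, at 0.62 (SE 0.21, adjusted p = 0.61), and Rgs2, at 0.65 (SE 0.27, adjusted p = 0.81), the interaction was not called.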

How the data were processed

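Droplet single-cell RNA sequencing (DNBelab C Series) gave 4 libraries, 2 Sema4d-shRNA and 2 NC. The authors deposited raw UMI counts per gene symbol and cell, written by PISA 1.0 per the file headers; STAR 2.5.1b and the builds GRCh38 and mm10 stand in the submitters' processing notes. No source used here gives the annotation or the cell calling. Every deposited cell had at least 1000 UMIs. Libraries held 83513906 to 119758159 UMIs.

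Cells were gated on raw counts and summed per library and cell set. Sums were tested with edgeR 4.0.16 (robust quasi-likelihood test, TMM, filterByExpr, R 4.3.3) over all genes, with Benjamini-Hochberg adjustment at 0.05; set shares were tested on cell numbers, with the log of all Cd3 cells as offset. Alternatives included DESeq2 1.42.0, no filter, each library left out, the top 6% of doublet scores left out (scrublet in scanpy 1.11.5), cells thinned to 1000 UMIs, stricter gates and other comparison cells. No cell was removed as a doublet otherwise. The gate, the members, the markers and the gene lists were chosen with earlier results of these data known. Named genes were the 15 of greatest log2 difference each way among those called (in the comparison of cell sets also at 100 CPM or more), the 8 of smallest p where fewer than 5 were called, the 5 of smallest p for the interaction, and a fixed list of effector genes. Intervals and floors (3 UMIs) cover counting error only. Genes that share sequence with close copies, and antisense partners, are uncertain. On simulated counts over 4222 genes, the test of Sema4d-shRNA against NC recovered 45% of genes changed by log2 1 and 87% of those changed by log2 2. The simulation gave every gene the same spread and changed only genes above a minimum level. These rates therefore need not hold for the measured genes, whose spreads differ. Deviations from the group means did not go together between the libraries numbered replicate 1 (r = -0.0037 across 4375 genes). This single r from sparse sums cannot decide whether the numbers pair libraries, and the labels do not say.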

Additional observations from a re-analysis of the deposited data

Results flagged for a closer look

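The effect of Sema4d-shRNA against NC differed between effector CD8 T cells and other Cd3 cells for 5 genes in edgeR's quasi-likelihood test of the interaction, given as the log2 effect in effector CD8 T cells minus that in other Cd3 cells. Gzma, at 2.07 (adjusted p = 3.29e-07), and Ifitm1, at -1.61 (adjusted p = 5.5e-07), were called under all 8 alternatives run. In other Cd3 cells of NC replicate 2, Gzma UMIs came from 6 cells, with 60 of 114 in 1 cell, and Ifitm1 UMIs from 12 cells. The shares of other Cd3 cells with a UMI overlapped between the groups for Gzma and for Ifitm1. Ltb stood at 1.04 (adjusted p = 0.016) and was not called by DESeq2 (adjusted p = 1.00), without the highest doublet scores (0.91, adjusted p = 0.12) or with at least 2 Cd3 and 2 Cd8 UMIs (0.84, adjusted p = 0.17).

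Igfbp3, at 11.16 (adjusted p = 3.29e-07), rested on single cells: effector CD8 T cells had 0 and 33 UMIs in the Sema4d-shRNA libraries, 31 of them in 1 cell, against 0 and 0 in the NC libraries, and other Cd3 cells had 0 and 13 against 2 and 51, with 50 in 1 cell. It was not called without Sema4d-shRNA replicate 2 or NC replicate 2, or by DESeq2. Ccl2, a monocyte chemokine, was at 80.0 and 11.8 CPM against 80.7 and 35.1 CPM in effector CD8 T cells and at 245 and 120 CPM against 70.8 and 63.3 CPM in other Cd3 cells (-2.16, adjusted p = 0.016). It was not called without Sema4d-shRNA replicate 2 (-1.42, adjusted p = 0.33) or NC replicate 1 (-1.32, adjusted p = 0.59), by DESeq2, with at least 2 Cd3 and 2 Cd8 UMIs (-1.45, adjusted p = 0.73) or without the highest doublet scores (-0.37, adjusted p = 0.99).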

How the results depend on the processing

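Of Sema4d-shRNA against NC in effector CD8 T cells, the 4 higher genes became 1 with DESeq2, 35 with no filter, 25 without the highest doublet scores, 1 with at least 2 Cd3 and 2 Cd8 UMIs, 12 on thinned cells, 9 with limits of 5 per 10000 and 5 to 12 without 1 library. The 12 lower genes became 22 with no filter and 10 to 21 without 1 library. No filter moved the median of all genes to 0.11. With the replicate block, 0 genes were higher and 11 lower, so none of the 4 higher calls was kept, and the share among Cd3 cells differed by 0.039. Whether the numbers pair the libraries is not known. Without the library block, the cell sets differed in 934 and 1011 genes.

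The 1001 higher and 1071 lower genes against other Cd3 cells became 579 and 581 with DESeq2, 186 and 198 with at least 2 Cd3 and 2 Cd8 UMIs, 102 and 172 against cells with Cd8, 104 and 117 against cells with Cd4 or Foxp3, 151 and 149 on thinned cells, 132 and 178 against non-cycling cells with 2 Cd3 UMIs, and 610 to 1115 and 610 to 1174 without 1 library. The 3 higher interactions became 1 with DESeq2, 5 with no filter, 7 without the highest doublet scores, 1 with at least 2 Cd3 and 2 Cd8 UMIs and 1 to 31 without 1 library; the 2 lower became 5 with no filter, 4 with at least 2 Cd3 and 2 Cd8 UMIs and 2 to 8 without 1 library. The share among Cd3 cells (log2 0.075) was -0.014 on thinned cells and -0.19 to 0.27 without 1 library, and that among all cells 0.39 to 1.60. The causes were not tested.

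Of the 42 genes named for Sema4d-shRNA against NC, 435 values over the alternatives kept direction and call, 48 lost and 18 gained a call and 27 changed sign, none of them of a called gene. The sign changes were Cd8a at 0.020 with at least 2 Cd3 and 2 Cd8 UMIs, 0.11 thinned and 0.018 with limits of 5; Ccl3 at 0.0062 with DESeq2, 0.018 with no filter, 0.029 with at least 2 Cd3 and 2 Cd8 UMIs, 0.023 without NK marker cells and 0.091 with limits of 5; Pdcd1 at 0.040 thinned and 0.14 with limits of 5; Tigit at -0.081 without the highest doublet scores; and Tnfrsf9 at 0.046 with at least 2 Cd3 and 2 Cd8 UMIs and 0.080 thinned. Without 1 library, Ccl3 ran from -0.48 to 0.43, Havcr2 from -0.56 to 0.046, Pdcd1 from -0.21 to 0.12, Tigit from -0.56 to 0.89, Gzmb from -0.55 to 0.32, Gzma from -0.48 to 1.93, Gzmk from -0.14 to 1.00, Ccl5 from -0.011 to 0.24 and Tnfrsf9 from -0.25 to 0.15.

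Against other Cd3 cells, 501 values of 42 genes kept direction and call, 59 lost and 16 gained a call and 25 changed sign. Against cells with Cd4 or Foxp3 these were Cald1 (0.10), Ccnd1 (0.64), Htra1 (0.32), Nupr1 (0.56), Sema4d (-0.054), Ctla4 (-1.48), Tox (-0.65) and Cxcr3 (-1.14). Against non-cycling cells with 2 Cd3 UMIs they were Cald1 (0.13), Ccnd1 (0.42), 2810417H13Rik (1.09), Wwtr1 (0.34), Htra1 (0.15), Nupr1 (0.053), Ncam1 (0.28), Cks1b (0.41), Sema4d (-0.013), Ctla4 (-0.086), Tox (-0.29), Nr4a1 (-0.28) and Cxcr3 (-1.16). On thinned cells Ctla4 (-0.094), Nr4a1 (-0.061) and Cxcr3 (-0.46) changed sign, and with at least 2 Cd3 and 2 Cd8 UMIs Cxcr3 (-0.38). Depth limits low genes most: in effector CD8 T cells 3 UMIs stand for 2.96 to 13.2 CPM.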
